A study of Mus musculus with 6 samples.

Results

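Transcripts of 37 lysosome and autophagy genes were followed in mouse livers with and without Alkbh5, the enzyme that removes the methyl group of N6-methyladenosine from RNA. The genes were taken by symbol from the deposited table of 41838 genes, as a fixed list of TFEB-family transcription factors, lysosomal hydrolases and membrane proteins, subunits of the lysosomal proton pump and core autophagy genes. All 37 were found, and 36 reached the mean of 1 FPKM (read fragments normalised for gene length and library size) over the 6 libraries that was required for testing. The exception was Neu1. Livers came from 3 Alkbh5flox/flox mice, called flox below, and from 3 mice whose titles read HKO and whose genotype is given as Alkbh5-CKO, called HKO below. The series text puts them at 9 weeks of age, the extract protocol speaks of 9 weeks on normal chow, and no further treatment is named. The sources used here give neither strain nor sex, feeding state at collection, Cre driver or the deleted part of the gene, and spell out neither abbreviation. Where 3 values are listed for a group, they are those of its libraries 1, 2 and 3. RNA came from whole liver, so fewer cells of a type and less RNA per cell cannot be told apart.

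Lysosomes are acidic compartments in which hydrolases break down proteins, lipids and glycans. A proton pump, the V-ATPase, keeps them acidic. Autophagy encloses cytoplasm in a double membrane that is marked by LC3 and GABARAP proteins and delivers it to the lysosome, a route that the liver uses during fasting. TFEB and TFE3 are transcription factors that move to the nucleus when mTORC1, a nutrient-sensing kinase, is inactive, and they bind E-box motifs in many lysosomal and autophagy promoters.

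The labels were checked first. Alkbh5 stood at 17.8, 16.8 and 14.8 FPKM in flox against 0.508, 0.443 and 0.476 in HKO. Libraries held 14907384 to 17034754 recovered reads. HKO library 1 lay apart from the other libraries on the first principal component of all tested genes, at 38.6, where HKO libraries 2 and 3 lay at 15.7 and 4.51 and the flox libraries between -22.7 and -13.7. Summed hepatocyte markers (8 genes) were at 56265 to 67091 FPKM in flox and 61753 to 64127 in HKO. Of these 8 markers 6 were lower on average (median log2 difference -0.20) and 0 passed the test described below. Albumin (Alb), the most abundant of them, was at a mean of 28517 FPKM in flox and 36341 in HKO, while Hnf4a was at 160.2 and 111.0 and Apoa1 at 10724 and 6822, each without overlap. Apoa1 was lowest in HKO library 1, at 3298. Of the other cell types in the marker lists, red cell transcripts (3 of 3 lower on average) ranged from 308.6 to 605.7 FPKM in flox and from 96.6 to 187.1 in HKO. T and NK cell markers (4 of 4 higher) ranged from 0.98 to 1.45 and from 2.08 to 2.62. They rest on few reads per library, 7 to 22 for Nkg7, 2 to 19 for Cd3e, 0 to 7 for Cd3d and 0 to 16 for Cd8a. Only Nkg7 was abundant enough to test, and it did not pass. For Cd3e, Cd3d and Cd8a the groups overlapped. The other marker sums overlapped between the groups, but some single markers within them did not, as in 25.4% of all tested genes. Of the recruited monocyte markers, Ly6c2 was at 0.730, 0.462 and 0.327 FPKM in flox and 3.41, 3.39 and 0.857 in HKO, from 5 to 58 reads. Ccr2 (10 to 27 reads) was also higher without overlap, while Lyz2, which made up most of that sum, Itgam, S100a4 and Cx3cr1 overlapped. Oit3 was higher and Cd163 and Stab2 lower without overlap. No listed marker was at 0 in all libraries, and the part of cell composition in the values below was not tested.

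The lysosome and autophagy genes as a set gave values close to those of all tested genes, and none passed the test. By limma with Benjamini-Hochberg (BH) adjustment at 0.05, 0 of the 36 tested members passed, where 0.488% of the 10453 tested genes did, 0.268% higher and 0.220% lower. With so few calls among all genes, a count of 0 is near the background and does not show that the members were unchanged. There were 5 members with an unadjusted p under 0.05, 2 higher and 3 lower, which is 13.9% of them. Of all tested genes 17.0% did so, 8.57% higher and 8.44% lower. Voom on the recovered reads also called 0 members, and of all 10453 tested genes it called 39 higher and 31 lower. Of the 36, 19 lay above flox on average (52.8%, against 48.0% of all tested genes) and 17 below, with a median log2 difference of 0.02 against -0.02 for all tested genes. In 8 members the 3 libraries of the groups did not overlap, 4 higher and 4 lower in HKO. That is 22.2% of the members, against 25.4% of all tested genes (12.8% higher and 12.6% lower). All differences are HKO minus flox on the log2(FPKM + 1) scale, which understates the change of genes with a low FPKM.

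The intervals limit how large a difference could have gone unseen. For 34 of the 36 members the 95% interval of limma, taken gene by gene on the same scale, lay inside a 2-fold change in either direction. For members with low levels, such as Tfeb, Gla and Cd63, the limit in FPKM itself is wider, so the 2-fold limit need not hold for their FPKM. The exceptions among the 36 on the log2(FPKM + 1) scale were Map1lc3a and Wipi1. For 22 members it lay inside a 1.5-fold change, so that for the rest a change of that size is within the interval. The median SD within groups was 0.17 on the log2 scale for the members and 0.21 for all tested genes.

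**Figure D1:**
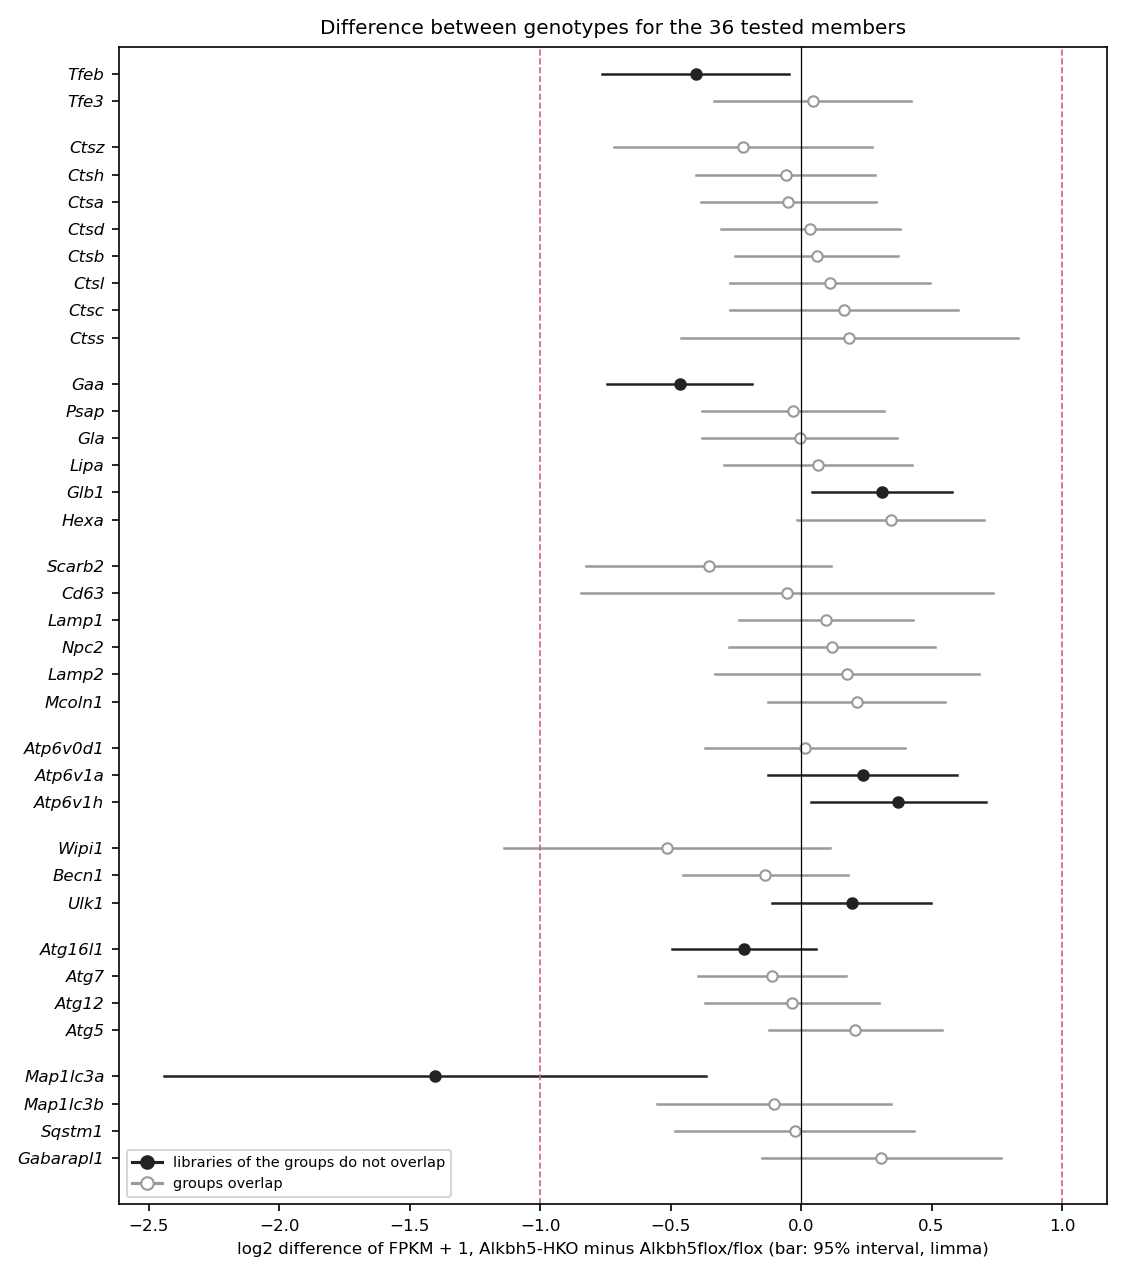
Difference between genotypes for the 36 tested members, grouped by role from transcription factors at the top to the LC3 family at the bottom. The x axis is the log2 difference of FPKM + 1, HKO minus flox, bars are 95% intervals from limma, filled points mark the 8 members whose libraries do not overlap, and dashed lines mark a 2-fold change. All intervals but those of Map1lc3a and Wipi1 lie between the dashed lines.

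**Figure D2:**
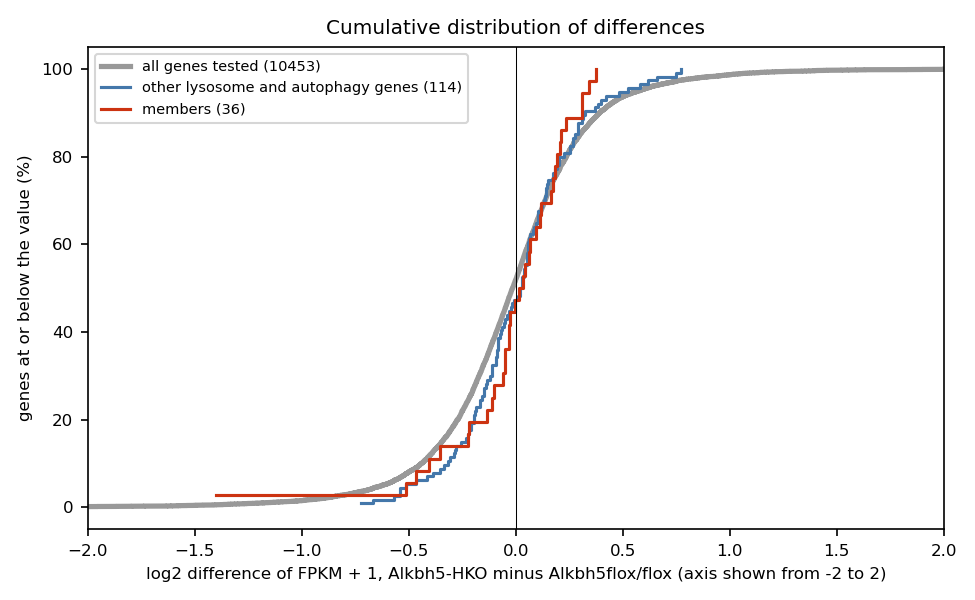
Cumulative distribution of the log2 differences for 36 members, 114 other lysosome and autophagy genes and all 10453 tested genes, with the x axis shown from -2 to 2. The medians are 0.02, 0.02 and -0.02, and the member furthest to the left is Map1lc3a at -1.40.

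An E-box was present in the promoter of 12 members. The list was not picked by sequence, but many lysosomal and autophagy promoters are known to hold this motif, so its share is no independent result. RefSeq promoters (GRCm38.p6, 250 bases before to 50 bases after a listed transcript start, which need not be the outermost start of the gene) were at hand for 30 of the 37 members. The E-box CACGTG, which reads the same on both strands, was found in 12 of these 30 (40.0%), against 8.09% of 27025 genes with a promoter and 12.2% of the 7926 tested genes with one. Of 105 other lysosome and autophagy genes with a promoter, the wider set described further on, 23 held it (21.9%). The longer form TCACGTGA, which contains the E-box, was found in 6 of the 30 (20.0%), against 1.12% and 2.37%, and 8.57% of the wider set. The CLEAR palindrome, which extends TCACGTGA by a base on each side and was also searched, was in 0 of the 30, against 0.37% of genes with a promoter and 1.9% of the wider set. The stretches below lie upstream of the start and are printed because they hold the E-box in members with contrasting levels: the most abundant member (Lamp1), the TFEB target channel Mcoln1, a member with a low level (Gla), and members whose groups did not overlap in either direction (Gaa, Glb1 and Atp6v1a). Capitals mark CACGTG or TCACGTGA.
Lamp1, chr8:13159084-13159160, plus strand: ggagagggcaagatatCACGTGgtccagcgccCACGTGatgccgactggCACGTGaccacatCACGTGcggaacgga
Mcoln1, chr8:3500432-3500496, plus strand: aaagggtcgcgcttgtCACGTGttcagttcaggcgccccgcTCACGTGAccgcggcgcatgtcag
Gla, chrX:134601177-134601249, minus strand: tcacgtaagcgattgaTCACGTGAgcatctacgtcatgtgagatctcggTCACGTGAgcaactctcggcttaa
Gaa, chr11:119267807-119267844, plus strand: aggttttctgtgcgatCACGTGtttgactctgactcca
Glb1, chr9:114401014-114401051, plus strand: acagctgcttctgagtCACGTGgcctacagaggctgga
Atp6v1a, chr16:44139368-44139407, minus strand: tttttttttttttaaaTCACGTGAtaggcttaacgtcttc

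The Lamp1 stretch holds 4 E-boxes between 61 and 15 bases before the start, and the Mcoln1 and Gla stretches hold 2 each. Members with the E-box did not share a direction. The 12 that hold it had a median log2 difference of 0.07 (range -0.47 to 0.31), with 8 above flox and 4 below. The 17 tested members whose promoter lacked it had a median of 0.04 (range -0.51 to 0.34), with 9 above and 8 below. The groups did not overlap in 3 of the 12 members with the E-box and in 2 of the 17 without it. Of all tested genes, 48.0% lay above flox and 25.4% had groups that did not overlap. A match is a description of the letters in this window and says nothing of binding.

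Of the transcription factors, Tfeb (chr17:47737037-47792416, plus strand), the best known regulator of lysosomal genes, was at 3.75, 3.88 and 4.11 FPKM in flox and at 2.16, 2.66 and 3.42 in HKO. All HKO values lay below all flox values. The means were 3.91 ± 0.18 (SD, n = 3) and 2.75 ± 0.63 (SD, n = 3), a log2 difference of -0.40 (95% interval -0.76 to -0.05, BH adjusted p = 0.241 by limma). The smallest of the 6 Tfeb values was in HKO library 1, and without that library the difference was -0.29 (limma BH adjusted p = 0.342). Its relative Tfe3, which binds the same motif, was more abundant per length, at 6.11 ± 0.53 FPKM in flox and 6.39 ± 1.27 in HKO, and the groups overlapped (log2 0.04, 95% interval -0.33 to 0.42).

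The 8 cathepsins, proteases of the lysosome, ranged from 6.77 FPKM for Ctsc to 174.6 FPKM for Ctsd as means of 6 libraries. In all 8 the groups overlapped, and log2 differences ran from -0.22 for Ctsz to 0.19 for Ctss. Ctsd, the main aspartic protease, was at 172.7 ± 19.0 FPKM in flox and 176.5 ± 13.4 in HKO. The cysteine proteases Ctsb and Ctsl were at 112.2 ± 3.81 and 139.6 ± 4.80 FPKM in flox and at 117.2 ± 10.3 and 152.4 ± 26.9 in HKO. Neither difference was larger than the spread between HKO livers. Ctsh, an aminopeptidase, was at 125.6 ± 11.4 and 120.7 ± 13.0 FPKM. Ctsa, which protects beta-galactosidase and neuraminidase in a complex, was at 46.3 ± 0.85 and 45.0 ± 6.22. Ctsc, which activates proteases of immune granules, was at 6.30 ± 1.01 and 7.25 ± 1.82. For Ctsz, HKO library 1 stood below the rest. Its FPKM was 170.8, 149.7 and 145.9 in flox and 97.0, 154.9 and 155.6 in HKO, and without HKO library 1 its log2 difference was 0.002. The Ctsb, Ctsz and Ctsa gene spans overlap Fdft1, Nelfcd and Pltp on the opposite strand, at means of 16.1, 15.2 and 10.4 FPKM, and reads of such pairs cannot be told apart without strand.

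Ctss, which macrophages and other antigen-presenting cells express strongly, varied most among the cathepsins. It was at 21.4, 15.2 and 21.2 FPKM in flox and at 15.7, 33.0 and 19.8 in HKO, so the highest value and a value near the lowest were both in HKO livers. The 12 Kupffer cell and macrophage markers, all of them detected, summed to 306.4, 202.7 and 292.3 FPKM in flox and to 205.2, 367.5 and 225.7 in HKO, which puts the 6 libraries in the same order as Ctss. Of the 36 members only Ctss had this order, which 8 of the 10453 tested genes had, Ctss among them. The order is that of the sum, in which abundant markers weigh most, and no single marker of the 12 had it. Clec4f, Vsig4, Adgre1 and Csf1r were lowest in HKO library 3, and Marco, C1qa, C1qc, Cd163 and Folr2 in HKO library 1. Timd4, Cd5l and C1qb were lowest in flox library 2, as the sum was, but lower in HKO library 3 than in HKO library 1. Cd5l was highest in HKO library 2 (86.5 FPKM), but Clec4f in flox library 1 (54.7, against 52.7 in HKO library 2). The 2 lowest sums, in flox library 2 and HKO library 1, lay close together. Of the 12 markers 4 were higher and 8 lower in HKO on average, and their part in the Ctss values was not tested. Without HKO library 2 the log2 difference of Ctss was -0.10 and without HKO library 1 it was 0.41.

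**Figure D3:**
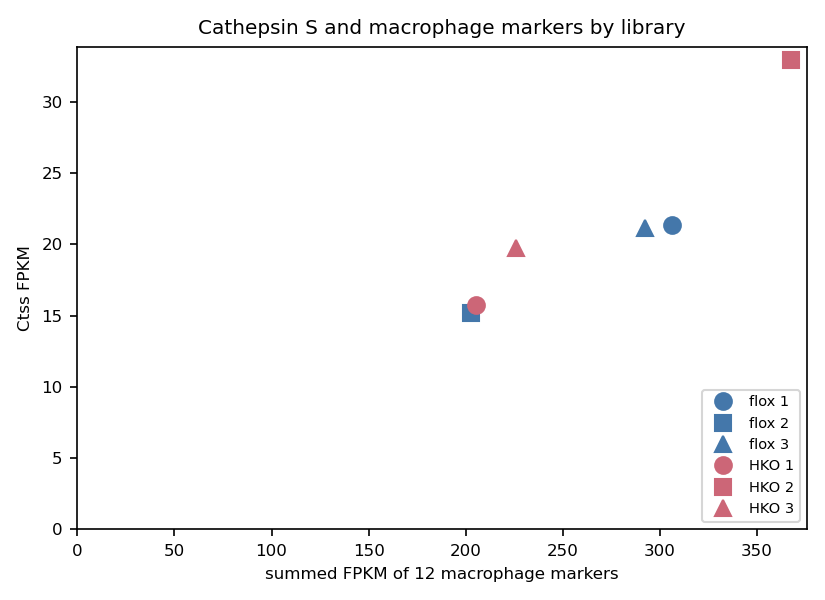
Cathepsin S (Ctss) FPKM on the y axis against the summed FPKM of 12 Kupffer cell and macrophage markers on the x axis, with 1 point per library, flox in blue and HKO in red. The order of the 6 libraries is the same on both axes, with HKO library 2 highest on both.

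Among the other hydrolases, Gaa and Glb1 differed in opposite directions without passing the test. Gaa (chr11:119267963-119285458, plus strand), the acid alpha-glucosidase that breaks down lysosomal glycogen, was at 29.1, 30.8 and 30.4 FPKM in flox and at 20.2, 22.2 and 22.2 in HKO. The 2 sets of 3 libraries did not overlap, and the spread within each was small. The means were 30.1 ± 0.86 and 21.6 ± 1.15 FPKM (SD, n = 3), and the difference did not pass the threshold (log2 -0.47, SE 0.12, 95% interval -0.74 to -0.19, BH adjusted p = 0.125 by limma), which was the smallest adjusted p of the 36 members. With any 1 library left out its log2 difference stayed between -0.49 and -0.42. Its single E-box, printed above, lies 140 bases before the start.

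Glb1 (chr9:114401078-114474379, plus strand), the beta-galactosidase that cleaves gangliosides and keratan sulfate, was at 5.86, 6.40 and 5.52 FPKM in flox and at 7.56, 7.78 and 7.40 in HKO. Here each HKO library lay above each flox library (log2 0.31, 95% interval 0.04 to 0.58, BH adjusted p = 0.233 by limma). The Glb1 span overlaps Tmppe and Gm30254, at means of 1.30 and 0.018 FPKM, and their part in its values was not tested. Hexa, the alpha subunit of beta-hexosaminidase, was at 28.0, 22.05 and 24.2 FPKM in flox and at 27.7, 35.4 and 31.9 in HKO, with HKO library 1 just under flox library 1 (log2 0.34, 95% interval -0.02 to 0.70, BH adjusted p = 0.313 by limma). Lipa, the acid lipase that releases cholesterol and fatty acids, was at 54.1 ± 2.75 and 57.1 ± 9.07 FPKM. Psap, the precursor of the saposin activators, was the most abundant of the group at 173.3 ± 18.0 and 169.4 ± 16.3. Gla, the alpha-galactosidase, was at 1.67 ± 0.18 and 1.69 ± 0.46 FPKM, from 62 to 99 reads per library. Lipa, Psap and Gla overlapped between the groups.

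Neu1, the lysosomal sialidase, was the member too low to test. It was at 0.424, 0.263 and 0.034 FPKM in flox and at 0.0298, 0.0434 and 0.0318 in HKO. These rest on 86, 46 and 7 reads in flox and 6, 10 and 6 in HKO, so flox library 3 lay with the HKO libraries and the groups overlapped. The deposited length of Neu1, 12575 bases, is larger than its span of 6045 bases on the genome, which lowers its FPKM in all libraries alike. It was the 1 member of 37 with this mismatch, which 690 genes of the table share.

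Membrane proteins included the most abundant member. Lamp1, a major glycoprotein of the lysosomal membrane, was at 297.1, 281.3 and 253.4 FPKM in flox and at 327.3, 272.8 and 289.3 in HKO (log2 0.10, 95% interval -0.24 to 0.43). With 4 E-boxes upstream of its start, it showed no difference beyond the spread of its group. Lamp2, its relative needed for fusion with autophagosomes, was at 98.6, 102.2 and 101.2 FPKM in flox and at 160.0, 94.8 and 97.2 in HKO. Only HKO library 1 stood away from the rest for Lamp2, and without it the log2 difference turned from 0.18 to -0.07. Scarb2, the receptor that carries beta-glucocerebrosidase to lysosomes, was at 51.8, 44.5 and 40.2 FPKM in flox and at 41.7, 26.6 and 39.2 in HKO, with HKO library 2 lowest (log2 -0.35, 95% interval -0.82 to 0.12). Without HKO library 2 the difference of Scarb2 was -0.16. Mcoln1, a calcium channel of the lysosome, was at 18.3 ± 0.74 and 21.6 ± 3.27 FPKM, and Npc2, which hands cholesterol to the membrane, at 18.3 ± 1.73 and 20.2 ± 3.68. Both overlapped between the groups. Cd63, a tetraspanin of late endosomes, had few reads, 14 to 71 per library. It was at 1.79, 0.83 and 3.57 FPKM in flox and 1.13, 2.06 and 2.20 in HKO, and a pseudogene copy, Cd63-ps, was listed with 4 to 20 reads. Whether reads of Cd63 were lost to this copy was not tested.

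All 3 V-ATPase members lay above flox on average (as did 48.0% of all tested genes) without passing the test, Atp6v0d1 by a log2 difference of 0.01. Atp6v1h (chr1:5082978-5163213, plus strand), a regulatory subunit of the cytosolic V1 sector, was at 9.80, 10.6 and 10.6 FPKM in flox and at 16.4, 12.6 and 12.4 in HKO. The groups did not overlap (log2 0.37, 95% interval 0.04 to 0.71, BH adjusted p = 0.246 by limma). Atp6v1a, the catalytic subunit of V1, was at 9.15, 9.34 and 9.18 FPKM in flox and at 13.8, 9.71 and 10.001 in HKO. These groups did not overlap either, although HKO libraries 2 and 3 lay close to flox. HKO library 1 was highest for both V1 subunits, and without it the log2 difference was 0.25 for Atp6v1h and 0.09 for Atp6v1a. Atp6v0d1, of the membrane sector, was at 47.3 ± 6.27 and 47.8 ± 6.54 FPKM, and without HKO library 1 its log2 difference was -0.09.

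Genes that start autophagy gave mixed values. Ulk1, the kinase at the head of the pathway, was at 24.3, 29.6 and 26.3 FPKM in flox and at 29.7, 30.5 and 31.7 in HKO. The groups touched but did not overlap, with 29.585 FPKM the highest in flox and 29.656 the lowest in HKO (log2 0.19, BH adjusted p = 0.479 by limma). Becn1, a subunit of the lipid kinase that marks the nascent membrane, was at 23.3 ± 2.34 and 21.1 ± 1.47 FPKM. Wipi1, which binds the lipid made there, was at 16.2, 13.0 and 8.53 FPKM in flox and at 5.84, 9.51 and 9.91 in HKO. Flox library 3 fell among the HKO libraries for Wipi1, and its interval reached past a 2-fold decrease (log2 -0.51, 95% interval -1.14 to 0.11, BH adjusted p = 0.373 by limma).

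The conjugation enzymes, which attach LC3 and GABARAP proteins to lipid, were at 9.73 to 17.9 FPKM as means of 6 libraries. Atg16l1, which places the reaction on the membrane, was at 13.6, 13.2 and 13.2 FPKM in flox and at 11.9, 10.3 and 11.6 in HKO, without overlap (log2 -0.22, 95% interval -0.50 to 0.06, BH adjusted p = 0.385 by limma). Its partners Atg5 and Atg12, which are joined to each other, were at 16.5 ± 1.25 and 9.996 ± 1.06 FPKM in flox and at 19.3 ± 2.62 and 9.76 ± 1.23 in HKO. Atg7, the activating enzyme, was at 10.2 ± 0.80 and 9.31 ± 0.60. For Atg5, Atg12 and Atg7 the groups overlapped.

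Map1lc3a had the largest difference of the 36 members and did not pass the test. Map1lc3a (chr2:155276364-155278073, plus strand) encodes LC3A, which marks autophagosomes. Its FPKM was 55.0, 51.0 and 42.4 in flox against 8.01, 23.3 and 30.3 in HKO. The highest HKO value lay below the lowest flox value, and the HKO livers differed widely among themselves. The means were 49.5 ± 6.43 (SD, n = 3) and 20.5 ± 11.4 (SD, n = 3), so that HKO held 0.415 times the flox level. The log2 difference was -1.40 (SE 0.44, 95% interval -2.44 to -0.36, BH adjusted p = 0.183 by limma). It rested in part on HKO library 1. Without that library the difference was -0.86 (limma BH adjusted p = 0.143), and with HKO library 3 left out it was -1.76 (0.123). No other listed gene overlaps its span.

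The other 4 genes of the LC3 and GABARAP family overlapped between the groups, 3 of them below flox on average and Gabarapl1 above. Whether their differences departed from that of Map1lc3a was not tested. Map1lc3b, the paralog most used as an autophagosome marker, was at 105.6, 104.1 and 75.1 FPKM in flox and at 104.2, 80.6 and 78.9 in HKO. HKO library 1, lowest for Map1lc3a, was the highest HKO library for Map1lc3b (log2 -0.10, 95% interval -0.55 to 0.34). Gabarapl1 was the most abundant member of the family, at 207.2, 183.4 and 250.1 FPKM in flox and at 213.9, 316.9 and 266.6 in HKO (log2 0.31, 95% interval -0.15 to 0.77, BH adjusted p = 0.458 by limma). Gabarap was at 2.13, 1.83 and 1.88 FPKM in flox and at 0.835, 1.75 and 2.35 in HKO, where its HKO libraries had the same order as for Map1lc3a (log2 -0.20, 95% interval -0.72 to 0.32). Gabarapl2 was at 47.9, 47.7 and 39.7 FPKM in flox and at 43.3, 39.7 and 43.8 in HKO (log2 -0.09, 95% interval -0.41 to 0.23). Of the summed FPKM of Map1lc3a, Map1lc3b, Gabarap, Gabarapl1 and Gabarapl2, Map1lc3a held 13.2%, 13.2% and 10.4% in flox against 2.16%, 5.04% and 7.18% in HKO. The family sum was 417.8, 388.0 and 409.1 FPKM in flox and 370.3, 462.1 and 422.0 in HKO, and it overlapped between the groups. Sqstm1, the receptor p62 that tethers cargo to LC3, was at 196.8 ± 24.5 and 195.2 ± 39.3 FPKM (log2 -0.03).

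**Figure D4:**
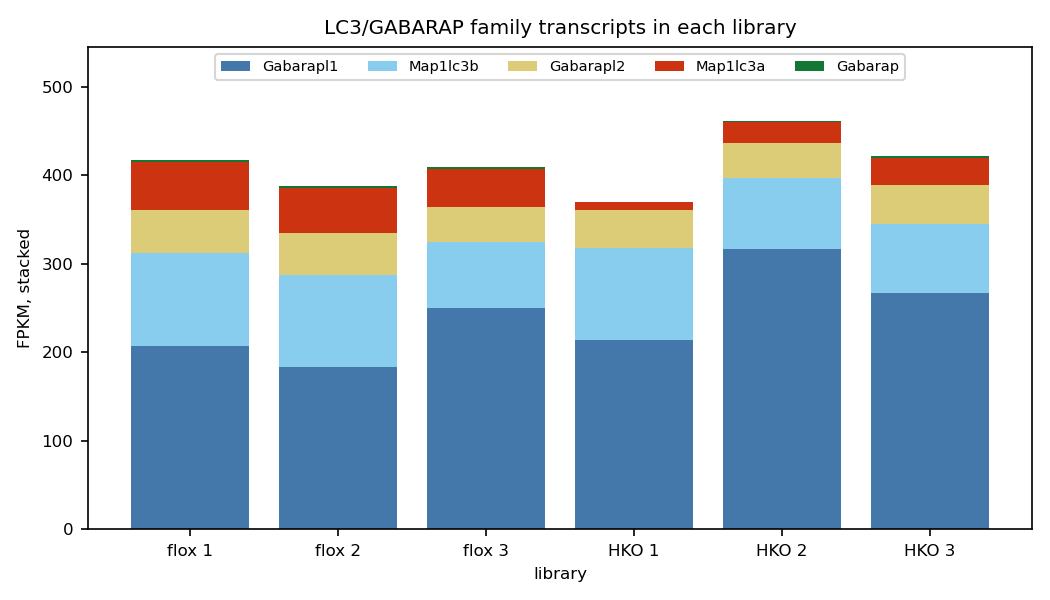
Stacked FPKM of the LC3 and GABARAP family in each library, flox at left and HKO at right. Map1lc3a (red) takes 10.4% to 13.2% of the stack in flox and 2.16% to 7.18% in HKO, while the height of the stack overlaps between the groups.

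**Figure D5:**
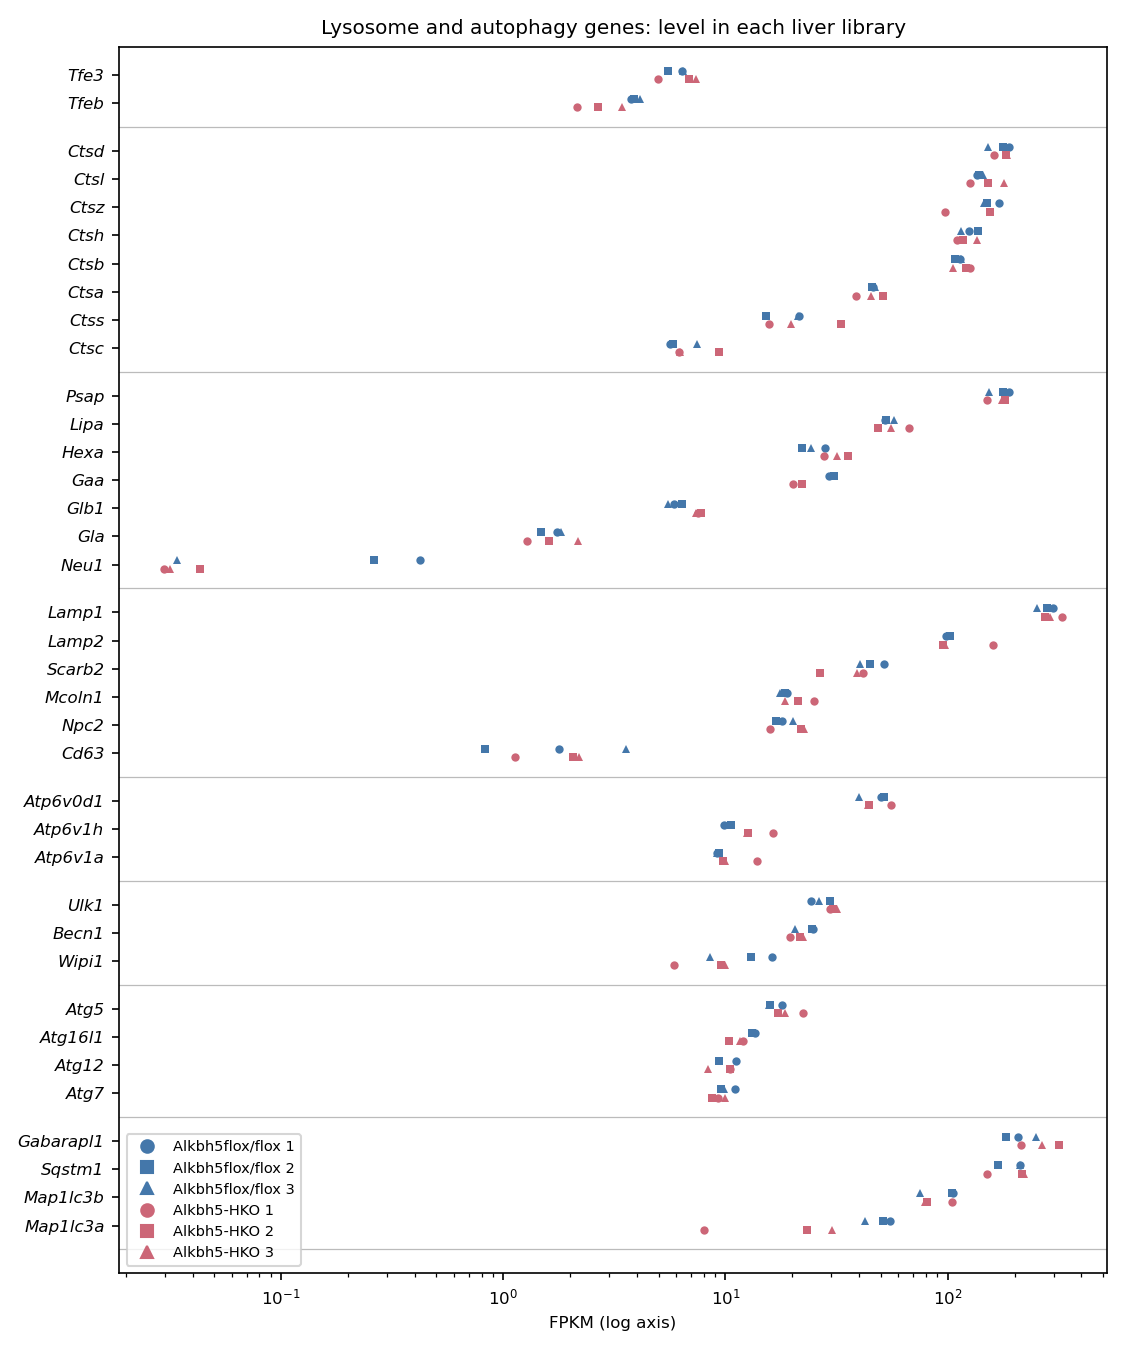
FPKM of all 37 members in each library on a log axis, grouped by role, with flox in blue and HKO in red and a marker shape for each library number. Levels run from 0.138 FPKM for Neu1 to 286.9 for Lamp1 as means of 6 libraries, and the red circles of HKO library 1 often lie at an edge of their row.

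Levels among the members spanned a wide range. As means of 6 libraries, 10 members were above 100 FPKM, 18 between 10 and 100, 8 between 1 and 10, and Neu1 below 1. Lamp1 (286.9 FPKM), Gabarapl1 (239.7), Sqstm1 (196.0), Ctsd (174.6) and Psap (171.4) led the order. Lamp1 exceeded Gabarapl1 in 5 of 6 libraries and not in HKO library 2, and Ctsd and Psap did not differ beyond their spread. HKO library 1 gave the highest or the lowest value in 23 of the 36 tested members (63.9%), 9 times the highest and 14 times the lowest. The same library was at an extreme in 56.9% of all tested genes. The summed FPKM of the 37 members was 2375, 2236 and 2210 in flox and 2202, 2379 and 2382 in HKO.

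A wider set held 129 other lysosome and autophagy genes. Of these, 15 were too low to test. Of the 114 tested, 0 passed by limma with BH adjustment (0.488% of all tested genes did). At an unadjusted p under 0.05 were 17 (11 higher and 6 lower, 14.9% of the 114, against 17.0% of all tested genes). Voom called 0 of the 114, against 39 higher and 31 lower among all 10453 tested genes. Above flox on average were 60, below were 54, and the median log2 difference was 0.02. The groups did not overlap in 27 (23.7%, against 25.4% of all tested genes), 14 higher and 13 lower. In each of 8 subsets the gene with the largest difference among those without overlap was examined. Atp6v1b2, which forms the catalytic ring of V1 with Atp6v1a, was at 17.0, 12.2 and 15.004 FPKM in flox and at 20.2, 25.6 and 18.9 in HKO (log2 0.52). Of the 13 other V-ATPase genes, 5 lay above flox and 8 below. Nagpa, which uncovers the mannose 6-phosphate tag of hydrolases, was at 10.4, 10.1 and 8.95 FPKM in flox and at 5.40, 6.97 and 7.06 in HKO (log2 -0.54, BH adjusted p = 0.128 by limma). Tpcn1, a cation channel of endosomes and lysosomes, had a log2 difference of -0.57. Fnip2, a partner of folliculin, was at 3.09, 4.12 and 4.69 FPKM in flox and 10.8, 6.18 and 6.02 in HKO (log2 0.77, BH adjusted p = 0.169 by limma). Ambra1, Atg3 and Snap29, which act in initiation, conjugation and fusion, had log2 differences of -0.32, 0.12 and 0.40.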

How the data were processed

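Poly(A) RNA of 6 livers was read as pairs by an Illumina NovaSeq, per the labels' protocols. Per the series text, the authors used HISAT2 2.0.5 to align to GRCm38.p6 and featureCounts 1.5.0-p3 to count. CASAVA and DESeq2 1.20.0 appear in the submitters' processing notes. The sources used here do not give the annotation, the strand setting or how reads with several matches were treated. The authors deposited FPKM per gene and library. Multiplied by the deposited length, 100% of the FPKM came out as whole reads (tolerance 0.001). From the FPKM, limma 3.58.1 (R 4.3.3, trend and robust, statmod 1.5.0) was run on log2(FPKM + 1), HKO minus flox, over genes whose mean FPKM was 1 or more, with BH adjustment over all of them at 0.05. Figures used matplotlib 3.10.9. All 228 list symbols were found, 2 through RefSeq synonyms. Named genes were all members, Alkbh5 and, per subset of the wider list, the gene with the largest difference among those without overlap. A gene that this rule names is not reported here. Members and lists were chosen with earlier results of these data known. The test was checked on simulated data. Libraries of a group differed by a chi-square per degree of freedom of 28.3 to 63.0, so none was a copy. Alternatives changed the pseudocount, filter, scaling, eBayes options, the replicate block, libraries left out, and voom on reads.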

Additional observations from a re-analysis of the deposited data

How the results depend on the processing

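By limma with BH adjustment and by voom, 0 members and 0 genes of the wider set passed in each of the 15 alternatives run, and Alkbh5 passed in all 15 (log2 -5.10 to -1.97). The smallest adjusted p of any member over these was 0.113, for Gaa under the stricter filter, a mean of 5 FPKM. Across all genes, libraries left out gave 0 to 29 higher and 1 to 38 lower calls. No filter gave 0 and 1 among 23371 genes. The replicate block gave 1 and 8, against 28 and 23 without it, and 0 members. Deviations from the group means correlated by 0.15, -0.14 and -0.05 between libraries of equal number, which does not show that the numbers pair the samples. TPM moved the median of the members from 0.02 to 0.10 and that of the wider set from 0.02 to 0.10, where the median of all tested genes went from -0.02 to 0.06. The last 2 medians are not over the same genes, since the filter on TPM left 12271 genes and that on FPKM 10453. TPM divides each library by its summed FPKM. These sums were 496585, 525087 and 458685 in flox and 456893, 455715 and 489156 in HKO. Why the sums differed was not tested. Of 655 values of single genes, 619 kept direction and side of the threshold and 36, in 16 genes, changed sign. TPM gave 0.039 for Atg12, 0.0066 for Cd63, 0.026 for Ctsa, 0.019 for Ctsh, 0.047 for Gla, 0.046 for Psap and 0.052 for Sqstm1, and a pseudocount of 5 gave 0.00058 for Gla. With a library left out the log2 difference ranged from -0.084 to 0.066 for Atg12, -0.098 to 0.079 for Atp6v0d1, -0.37 to 0.29 for Cd63, -0.14 to 0.055 for Ctsa, -0.012 to 0.27 for Ctsc, -0.056 to 0.10 for Ctsd, -0.14 to 0.0091 for Ctsh, -0.013 to 0.24 for Ctsl, -0.10 to 0.41 for Ctss, -0.34 to 0.0017 for Ctsz, -0.13 to 0.11 for Gla, -0.068 to 0.31 for Lamp2, -0.052 to 0.17 for Lipa, -0.11 to 0.0497 for Psap, -0.13 to 0.15 for Sqstm1 and -0.0500 to 0.19 for Tfe3. Depth limits Neu1 and Cd63, at no more than 86 and 71 reads in any library.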

Other observations

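Folliculin and its partners signal nutrient state to mTORC1 and keep TFEB and TFE3 out of the nucleus. The subset of the wider list that holds them also holds the remaining MiT/TFE factors, Rag GTPases and Zkscan3, 8 genes in all. All 5 that were tested lay above flox on average (as did 48.0% of all tested genes), Zkscan3 by a log2 difference of 0.02. By limma with BH adjustment 0 passed. At an unadjusted p under 0.05 were 2 of the 5, against 17.0% of all tested genes. Voom called 0, against 39 higher and 31 lower among all 10453 tested genes. Of the 8 subsets of the wider list, only this had every tested gene above flox, and its median log2 difference (0.48) was the largest. These counts are thus those of the most extreme subset. Mitf, too low to test, was at a mean of 0.59 FPKM in flox and 0.46 in HKO, lower without overlap. Flcn, named after its values were seen, was at 9.21, 10.3 and 15.5 FPKM in flox and at 15.9, 24.2 and 15.2 in HKO (log2 0.62, BH adjusted p = 0.254 by limma). Flox library 3 fell within the HKO range. Flcn lies on chromosome 11 at 59791408 to 59810123, on the same chromosome as Alkbh5 (60537683 to 60558512). Whether this position bears on its values was not tested. Fnip1, likewise named after its values were seen, was at 5.75 to 6.95 FPKM in flox and at 16.6, 7.62 and 6.54 in HKO libraries 1 to 3, so that only HKO library 1 stood away. Fnip1 is on chromosome 11 too, further from Alkbh5, at 54438145 to 54518241.

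In the V-ATPase, Atp6v1e1 was at 18.8, 1.46 and 0.862 FPKM in flox libraries 1 to 3 and at 7.83, 1.15 and 0.637 in HKO libraries 1 to 3, high in the libraries numbered 1 of both groups. Atp6v1c1 was at 4.05, 2.44 and 2.09 FPKM in flox and at 5.11, 1.03 and 0.0795 in HKO. Both were singled out after their values were seen.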
